A study of Mus musculus with 8 samples.

Results

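The 10 genes described here, Piwil1, Piwil2, Piwil4, Tdrd1, Tdrd9, Rnf17, Mael, Mov10l1, Asz1 and Ddx4, encode proteins of the piRNA pathway. They were chosen by name, with earlier results of these data known. Every cytosine read from 2 kb upstream of the transcription start to the gene end was taken as theirs. This gave 614 of the 2130064 cytosines in the data. The promoter was the stretch from 1 kb upstream to 100 b downstream of the start, and the gene body ran from there to the gene end. At least 3 cytosines were read in the promoters of 6 of the genes and in the bodies of 9. DNA methylation was measured by reduced representation bisulfite sequencing (RRBS), which reads cytosines near MspI cut sites (CCGG) and counts reads that kept the C (methylated) or show a T (unmethylated). The cells came from the testes of F1 C3H/HeN male mice at postnatal day 6 and were drawn out magnetically with an antibody to CD49f (Itga6), and the labels call them type A spermatogonia. The dams of the control group drank tap water, and those of the arsenic group had sodium arsenite added at 85 ppm between gestational days 8 and 18. Each group had 4 samples, and since every sample joined the 8 testes of 4 mice, differences between the mice of a pool cannot be seen.

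PIWI proteins bind small RNAs, the piRNAs, and in germ cells use them to find and cleave the RNA of transposons. The nuclear PIWI protein Piwil4 also directs DNA methylation to transposons in fetal male germ cells. Tudor domain proteins bind methylated arginines of PIWI proteins and hold the machinery together in granules, and helicases and mitochondrial anchor proteins process the precursors. Many genes of the pathway are themselves switched by DNA methylation: their promoters are known to be methylated in somatic tissues and to lose methylation in primordial germ cells.

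Reads on cytosines ranged from 96428439 to 133406260 per sample and median coverage from 31 to 44. The same table holds genes whose methylation can mark the cell type, and the maternally imprinted promoters went against the label. The promoters of 9 maternally imprinted genes with enough cytosines, which male germ cells are known to hold unmethylated, averaged 48.1% to 57.1% per sample, and 8 of the 9 stood at 50% or more. The 4 cytosines read 2 to 4 kb upstream of H19, which male germ cells are known to methylate on either allele, stood at 58.1% to 81.2%. Of 9 promoters of other germline genes 8 were at 50% or more (list mean 74.5% to 78.8% per sample), Smc1b at 2.85% being the exception. The 5 promoters of somatic testis genes that were read (Sox9, Gata4, Wt1, Nr5a1 and Myh11) lay between 0.990% and 3.57%, near the median of all promoters (1.77%), so their level marks no cell type. The cells are therefore called the CD49f-isolated cells below. A level in a pool is an average over all its cells, so the share of germ cells and the methylation per germ cell cannot be told apart. The part of the cell mixture in the values below was not tested. None of the 3 marker lists had a promoter whose groups did not overlap. Bodies with enough cytosines numbered 14 for the maternally imprinted, 10 for the germline and 10 for the somatic testis genes. Among them that of Sox9 was the only one without overlap. It stood at 0.633% in control and 1.13% in arsenic (exact permutation p = 0.0286, F test adjusted p = 0.860). At levels this near 0, a C left unconverted by bisulfite cannot be told from methylation, and conversion per sample was not examined. Of the bodies of all genes, 3.88% had groups that did not overlap.

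The promoters of 2 genes are shown, that of Tdrd1 because every CpG in it was read and that of Ddx4 because its promoter holds the most CpGs of the 10 genes. The bases are those of RefSeq for GRCm38.p6 (mm10), 250 to 1 b upstream of the start on the strand of the gene, and capitals mark each CpG that was read. In Tdrd1 (chr19:56825959-56826208, plus strand) all 11 CpGs of the stretch were read, and in Ddx4 (chr13:112652311-112652560, minus strand) 16 of 31.
Tdrd1: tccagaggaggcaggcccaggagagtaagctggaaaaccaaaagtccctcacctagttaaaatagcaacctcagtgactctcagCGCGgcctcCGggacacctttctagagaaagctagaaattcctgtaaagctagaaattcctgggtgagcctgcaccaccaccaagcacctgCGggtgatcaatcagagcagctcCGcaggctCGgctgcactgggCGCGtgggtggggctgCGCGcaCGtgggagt
Ddx4: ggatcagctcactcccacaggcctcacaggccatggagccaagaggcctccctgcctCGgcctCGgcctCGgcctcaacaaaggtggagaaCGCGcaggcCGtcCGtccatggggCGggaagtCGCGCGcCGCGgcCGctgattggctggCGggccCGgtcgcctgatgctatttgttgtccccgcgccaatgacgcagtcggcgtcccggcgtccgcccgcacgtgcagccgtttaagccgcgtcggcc

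RefSeq promoter sequences (250 b upstream to 50 b downstream) were at hand for 8 of the 10 genes, and those of Piwil2 and Rnf17 were not used. The 6 letters CACGTG, which read the same on both strands and hold a CpG in their middle, occurred in 6 of these 8, with 8 matches in all, against 7.15% of 32817 promoters of the same length. They are the letters of an E-box, a site class bound by basic helix-loop-helix factors such as Myc and Usf proteins. A match of letters is a description and not a bound site. The 8 matches are printed with up to 10 bases on each side, since methylation of their middle CpG is the measure that the data could bear on. They lie at chr5:128736057-128736082 and chr5:128736082-128736107 (Piwil1, plus strand), chr19:56826188-56826213 (Tdrd1, plus), chr12:111971384-111971409 and chr12:111971454-111971479 (Tdrd9, plus), chr1:166238952-166238977 (Mael, minus), chr15:88982744-88982763 (Mov10l1, plus) and chr13:112652324-112652349 (Ddx4, minus). Capitals mark the match.
Piwil1: aaccgccaccCACGTGgcagccaatc
Piwil1: cagggcccagCACGTGtccacctcgc
Tdrd1: gggctgcgcgCACGTGggagtaaact
Tdrd9: tctccataaaCACGTGcctgtccagg
Tdrd9: acgaggctccCACGTGcatgcagggc
Mael: ccaggcctacCACGTGacaatccccg
Mov10l1: ccttCACGTGctaaccgcca
Ddx4: cgtccgcccgCACGTGcagccgttta

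Of these 8 CpGs RRBS read only that of Tdrd1, at -9 b from the start, at 53.3% on average (33.3% to 75.7% over the 8 samples). Its 13 neighbours within 50 b averaged 56.7%, and it was below them in 5 of 8 samples. A further CACGTG of the Tdrd1 promoter, at -487 b, stood at 34.3% against 51.9% for its 2 neighbours and was lower in 8 of 8 samples. Over all genes the CpG of CACGTG was compared with all other cytosines of its promoter, not with neighbours within 50 b. In 91 promoters, picked because their other cytosines stood at 50% or more, the CpG was lower in 77 (84.6%). The median difference there was -15.4 points, and picking by the other cytosines in itself favours such a gap. Over all 939 promoters the median was 0.962% for the CpG and 1.77% for the others. The promoter of Ddx4 also holds GCGGGAA, the letters of an E2F site (either strand, in 4.60% of the 32817 promoters). Its CpG stood at 84.6% on one strand and 74.9% on the other, among neighbours averaging 78.0% and 78.4%.

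The promoters that were read were highly methylated in every sample. Their average methylation levels ran from 60.2% in Tdrd1 over 68.9% in Piwil2, 78.7% in Mael, 80.2% in Ddx4 and 81.1% in Rnf17 to 89.1% in Asz1. The median of the 12144 promoters of all genes was 1.77%, and 11.6% of those promoters stood at 50% or more, where all 6 of these genes lay. Tdrd1 was above 90.2% of all promoters and Asz1 above 98.3%. The ranges of the 8 samples overlapped for all 5 pairs of neighbours in this order, although both promoters of a pair were read in the same pools. The lower of a pair by its mean was lower in 7 of 8 samples for Tdrd1 and Piwil2 and for Piwil2 and Mael, in 5 for Mael and Ddx4, and in 6 for Ddx4 and Rnf17 and for Rnf17 and Asz1. No promoter cytosine was read in Piwil1, Piwil4, Tdrd9 or Mov10l1, whose windows hold 42, 18, 21 and 39 CpGs.

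**Figure D1:**
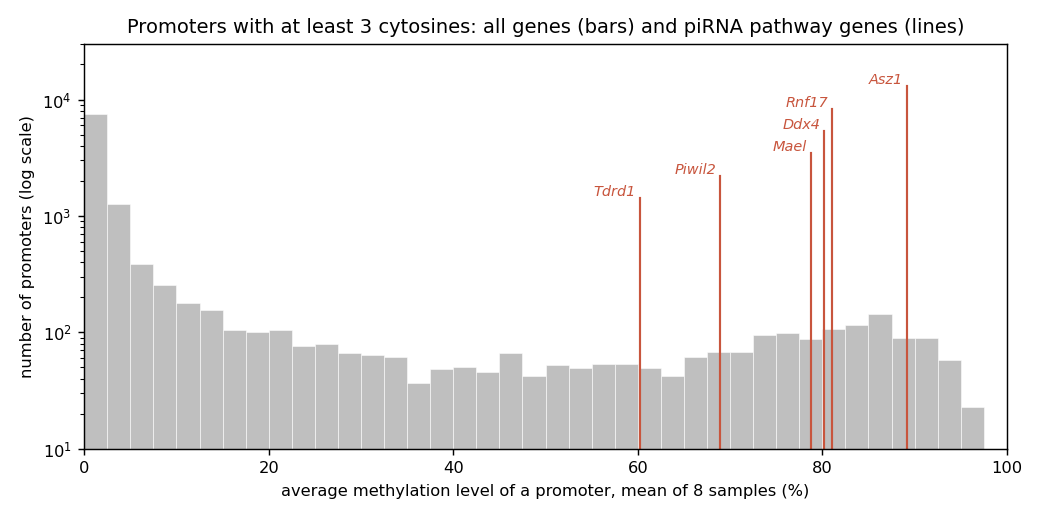
Number of promoters (log axis) by average methylation level in percent (mean of 8 samples), for the 12144 promoters with at least 3 cytosines (grey bars), with lines at the 6 piRNA pathway promoters. All 6 lines stand at 60.2% or above, whereas the median promoter was at 1.77%.

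The question of the comparison was whether gestational arsenic changed these levels. No member promoter passed the test: the quasi-binomial F test on summed counts called 0 of the 6 and 0% of the 12144 promoters at an adjusted p of 0.05, with 622 promoters (5.12%) and 0 members at an unadjusted p under 0.05, and limma likewise called none. The groups overlapped at all 6 promoters, and they did not overlap at 3.01% of all promoters. The differences (arsenic minus control) had a median of 2.65 points, with 4 of 6 higher in arsenic, against a median of -0.05 points over all promoters, of which 52.2% were lower in arsenic. The median level of all promoters was 1.77%, so the 2 medians come from promoters of unlike level. Promoters of like level were not compared.

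Piwil2 encodes MILI, the PIWI protein that makes and amplifies piRNAs in fetal and postnatal germ cells. Its promoter (chr14:70429008-70430108, minus strand, 18 cytosines) read 61.8%, 65.3%, 73.0% and 68.4% in the control samples. The arsenic samples read 73.1%, 75.0%, 70.8% and 63.8%. The ranges overlapped, although arsenic 1 and arsenic 2 lay above every control and control 1 below every arsenic sample. The difference of 3.55 points had an exact permutation p of 0.314 (4 against 4, two-sided). It was 1.78 points without control 1 and 5.85 without arsenic 4. The average hid 2 unlike parts. The 12 cytosines upstream of the start averaged 85.4%, and the 6 from 12 to 96 b downstream, within the first exon, averaged 35.8%. The groups differed by 0.05 points in the upstream part and by 10.5 points in the downstream part, which was not tested. There the controls read 22.0%, 17.2%, 50.8% and 31.9% and the arsenic samples 47.6%, 48.9%, 43.0% and 24.8%, so that the groups overlapped, with control 3 the highest of all. The upstream part lay at 81.7% to 89.3% in the 8 samples and the downstream part at 17.2% to 50.8%, so that no sample of one reached the other. The cytosine nearest to the start, 12 b downstream, was the lowest of the promoter at 15.8% (0% to 32.0%). Median coverage was 114.5 reads upstream and 17 downstream, so the lower part is also the less precise one.

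Tdrd1, a tudor protein that binds MILI in the granules between mitochondria, had the promoter with the lowest mean level (chr19:56825209-56826309, plus strand, 31 cytosines). All 31 CpGs of its window were read. The control samples read 51.4%, 55.9%, 64.3% and 61.0%. The arsenic samples read 60.2%, 60.3%, 64.1% and 64.4%. Control 1 and control 2 were the lowest of the 8, and control 3 and control 4 lay among the arsenic samples (difference 4.15 points, exact permutation p = 0.314). The difference was 1.89 points without control 1, and -1.28 points with a coverage of 30 required (9 cytosines). The 25 cytosines nearest to the start averaged 61.4% and the 6 farther upstream 55.3%, and the nearest one, 6 b downstream, stood at 57.2%. From the promoter's end to 1 kb downstream the 11 cytosines averaged 84.0%.

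Rnf17, a tudor protein with a RING finger that restrains piRNA production during meiosis, showed the largest promoter difference among the 6 (chr14:56401697-56402797, plus strand, 15 cytosines). The control samples read 83.5%, 71.1%, 78.5% and 74.6%. The arsenic samples read 91.6%, 81.4%, 88.4% and 79.7%. Control 1 lay above arsenic 2 and arsenic 4, so the groups overlapped (8.37 points, exact permutation p = 0.114, F test adjusted p = 0.848). Where a coverage of 20 was required, 4 of the 15 cytosines remained and the difference was -0.66 points (exact permutation p = 0.943). The nearest cytosine, 8 b downstream, stood at 89.9%.

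Mael encodes Maelstrom, a protein of the granules that is needed for transposon silencing. Its promoter (chr1:166238644-166239744, minus strand) was read at 17 cytosines, all from 32 to 100 b downstream of the start. The control samples read 74.6%, 79.0%, 82.4% and 80.7%, and the arsenic samples 69.4%, 78.7%, 83.2% and 81.8%. Each group held both a low and a high sample (difference -0.92 points, exact permutation p = 0.8). The cytosine nearest to the start stood at 88.3%.

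Asz1, a scaffold on the outer mitochondrial membrane, had the promoter with the highest mean level (chr6:18108961-18110061, minus strand), read at 5 cytosines from 5 to 93 b downstream. The control samples read 84.0%, 95.6%, 87.4% and 86.0%, and the arsenic samples 91.6%, 91.4%, 87.7% and 89.4%. The control range enclosed every arsenic sample (1.75 points, exact permutation p = 0.6). The difference was 0.33 points without control 1 and 4.19 without control 2, the lowest and the highest control. Its first measured cytosine, 5 b downstream of the start, stood at 89.8%.

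Ddx4 encodes the DEAD-box helicase VASA, a defining germ cell protein that works in the amplification of piRNAs. Its promoter (chr13:112652210-112653310, minus strand, 32 cytosines on the 17 CpGs read) holds 53 CpGs, the most of the 10. The control samples read 81.1%, 87.9%, 77.8% and 84.6%, and the arsenic samples 81.3%, 79.5%, 73.6% and 76.0%. Arsenic 3 and arsenic 4 were the lowest, but arsenic 1 and arsenic 2 lay above control 3 (-5.24 points, exact permutation p = 0.143, F test adjusted p = 0.848). Across its cytosines the median difference was -4.24 points, the lowest of the 10 genes, and 0 of its 32 cytosines met the DMC rule given below. The nearest cytosine, at -93 b, stood at 75.9%.

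**Figure D2:**
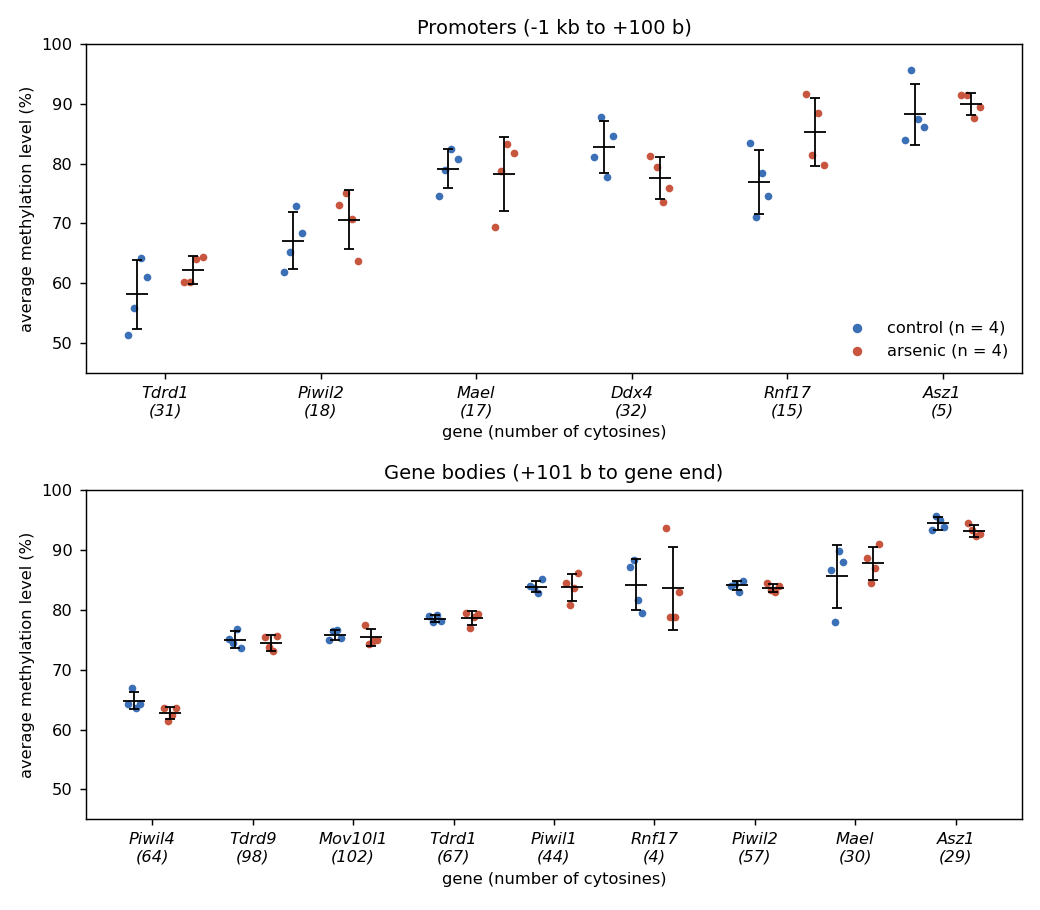
Average methylation level in percent of each promoter (top) and gene body (bottom) with at least 3 cytosines, for the 4 control (blue) and 4 arsenic (red) samples. Points are pools, bars the mean and SD, the axis starts at 45%, and the groups overlap everywhere except in the body of Piwil4 (lowest control 63.7%, highest arsenic 63.6%).

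**Figure D3:**
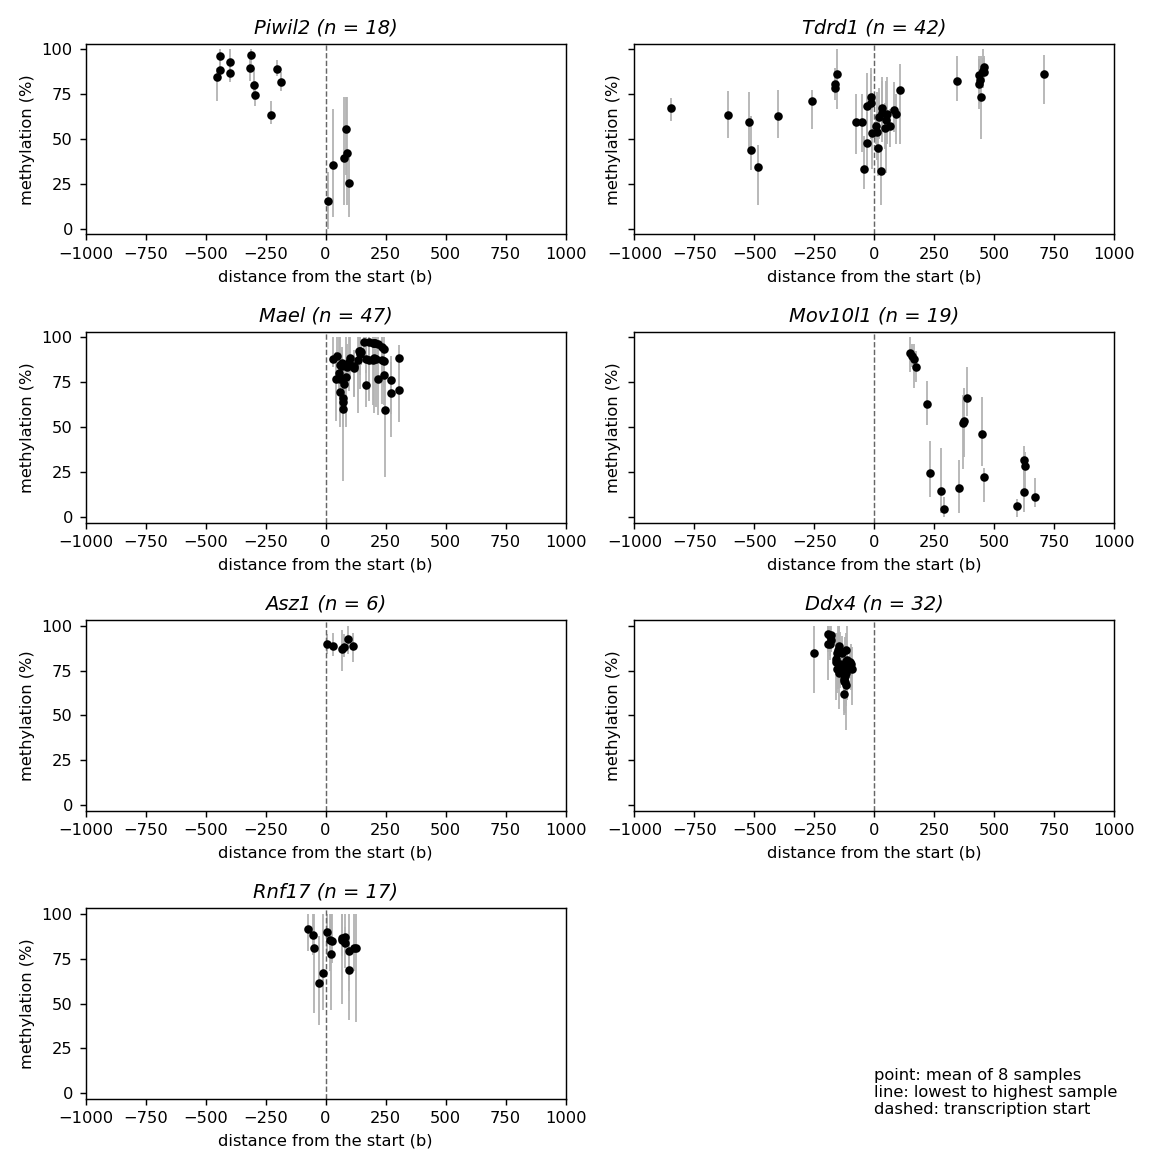
Methylation level in percent of single cytosines from 1 kb upstream to 1 kb downstream of the start in the 7 genes with any cytosine there. Points are means of 8 samples and lines run from the lowest to the highest sample, with the fall from 85.4% to 35.8% across the start of Piwil2 and from 88.1% to 30.4% within Mov10l1.

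Beyond the promoters, the first cytosines read lay 147 b downstream of the start in Mov10l1, 1250 b in Piwil4, 7549 b in Piwil1 and 18902 b in Tdrd9. They stood at 91.3%, 89.4%, 77.4% and 85.6%. Mov10l1, the helicase that starts the cutting of piRNA precursors, fell in level within its first intron. The 4 cytosines from 147 to 175 b downstream averaged 88.1% (81.7% to 95.3% in the 8 samples), and the 15 from 219 to 670 b averaged 30.4% (24.7% to 37.4%). The level at its own promoter was not measured.

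The gene bodies were methylated in every sample too. Their average levels were 63.8% in Piwil4, 74.8% in Tdrd9, 75.6% in Mov10l1, 78.6% in Tdrd1, 83.8% in Piwil1, 83.9% in Rnf17 and in Piwil2, 86.7% in Mael and 93.9% in Asz1, against a median of 55.9% over 18984 gene bodies. Piwil4 lay under Tdrd9, Tdrd1 under Piwil1 and Mael under Asz1 in 8 of 8 samples without overlap of the ranges, and Piwil1, Rnf17 and Piwil2 had no stable order. The promoters of Tdrd1 and Piwil2 lay under their own bodies in 8 of 8 samples, by 18.4 and 15.01 points, and without overlap of the ranges. That of Asz1 was lower in 8 of 8 too, by 4.72 points with overlapping ranges, that of Mael in 7 by 7.97 points, and that of Rnf17 in 6 by 2.77 points. No cytosine was read in the body of Ddx4.

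No member body passed the F test: 0 of 9 and 0% of the 18984 bodies were called at an adjusted p of 0.05, with 1087 bodies (5.73%) and 0 members at an unadjusted p under 0.05. With limma 1 body of all genes and 0 members were called. Differences between the groups ran from -2.04 points in Piwil4 to 2.14 points in Mael, with a median of -0.47, and 7 of 9 were lower in arsenic, against a median of -0.27 over all bodies, of which 61.3% were lower.

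The groups did not overlap in 1 of the 9 bodies, that of Piwil4, and in 3.88% of all bodies. Piwil4 encodes MIWI2, the nuclear PIWI protein of fetal germ cells. Its body (gene at chr9:14701776-14740672, minus strand, 64 cytosines) read 64.3%, 66.9%, 63.7% and 64.3% in the control samples. The arsenic samples read 63.6%, 61.5%, 62.5% and 63.5%, all below the lowest control but close to it. The difference of -2.04 points had an exact permutation p of 0.0286, the smallest that 4 against 4 allows, and an F test adjusted p of 0.940. Weighted by coverage it was -1.36 points (exact permutation p = 0.314), with a coverage of 30 required it was -0.48 points (26 cytosines), and without control 2 it was -1.33 points (exact permutation p = 0.114). Without control 1, 3 or 4 it ran from -2.41 to -2.19 points with an exact permutation p of 0.0286, and without 1 of the arsenic samples from -2.32 to -1.60 points with an exact permutation p of 0.0571.

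The body of Piwil4 was uneven. A stretch of 10 cytosines in an intron, from 22494 to 22769 b downstream of the main start, averaged 15.6% (12.2% to 23.6%) and lay within 1 kb downstream of a second RefSeq start (chr9:14718387). The 19 cytosines from 1250 to 1871 b after the main start averaged 71.3%, and the 11 from 37076 to 37535 b averaged 85.9%. At the second start itself no cytosine was read. A pair of nearby cytosines, 1539 and 1587 b downstream of the main start, showed the largest falls of the gene, from 34.7% to 9.32% and from 23.5% to 3.48% in the group means. Their groups did not overlap, but their q values were 0.0273 and 0.0327 and they were not DMCs.

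Piwil1 encodes MIWI, the PIWI protein of meiotic and later cells. Its body (44 cytosines) read 84.0%, 83.7%, 82.8% and 85.1% in the control samples and 84.5%, 80.7%, 83.6% and 86.2% in the arsenic samples. The lowest and the highest of the 8 values were both in the arsenic group (-0.14 points, exact permutation p = 0.943). The body of Piwil2 (57 cytosines) spread little, from 83.1% to 84.9% in control and 83.0% to 84.5% in arsenic (-0.36 points, exact permutation p = 0.514).

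Among the tudor proteins, the body of Tdrd1 (67 cytosines) ran from 78.0% to 79.1% in control and from 77.0% to 79.4% in arsenic (0.07 points, exact permutation p = 0.914). Tdrd9, a tudor helicase that acts with Piwil4, had 98 cytosines in its body. The control samples read 75.1%, 74.5%, 76.9% and 73.6% and the arsenic samples 75.5%, 73.8%, 73.0% and 75.6%. The groups were intermingled (-0.56 points, exact permutation p = 0.571). The body of Rnf17 was read at 4 cytosines and ranged from 78.8% to 93.6% (-0.59 points, exact permutation p = 0.943).

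Tdrd9 held 5 cytosines at which no methylated read was counted in any sample. At 170 to 285 reads over the 8 samples a count of 0 allows a level of up to 1.05% to 1.76%, for counting error alone. The opposite strand of the same CpGs stood at 0.399% to 3.64%, and other cytosines within 50 b of 4 of these 5 CpGs reached 80.4% to 89.9%. In Mov10l1 the strands of single CpGs disagreed: 59626 b downstream of the start the minus strand stood at 8.52% and its partner at 96.8%, and 59773 b downstream the plus strand stood at 5.48% and its partner at 98.6%. The median gap between the strands of a CpG was 1.97 points in Tdrd1, 2.81 in Tdrd9 and 4.02 in Mov10l1, and it was widest in Mael at 7.31. The reads were mapped to mm10, and the bases that C3H mice carry at these positions were not examined.

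In the remaining genes the body of Mael (30 cytosines) had the widest spread, with 86.7%, 77.9%, 89.8% and 88.0% in control and 88.7%, 84.5%, 87.0% and 90.9% in arsenic. Control 2 was the lowest of the 8, and without it the difference was -0.43 instead of 2.14 points. The body of Mov10l1 (102 cytosines) ran from 75.0% to 76.7% in control and from 74.3% to 77.4% in arsenic (-0.47 points, exact permutation p = 0.657). That of Asz1 (29 cytosines) ran from 93.4% to 95.7% and from 92.3% to 94.5% (-1.26 points, exact permutation p = 0.143).

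By the kind of sequence, the 131 cytosines in coding exons averaged 85.02%, the 377 in introns 75.5%, the 68 upstream of a start 76.1% and the 30 in exons before the coding start 62.3%. Of the 614 cytosines, 62.9% stood at 80% or more and 6.51% under 20%, compared with 43.2% and 33.4% of all cytosines. The 94 cytosines that RefSeq marks as repeat sequence averaged 82.7% and the others 76.0%, and over all cytosines these means were 78.5% and 48.6%. In Asz1 76.5% of the cytosines lay in repeats and in Mael and Ddx4 none did.

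At single cytosines, a differentially methylated cytosine (DMC) was one with q of at most 0.01 in a logistic regression and a difference of at least 10 points. Among the 614 there were 9 DMCs (1.47%): 4 hypoDMCs and 5 hyperDMCs. Over all cytosines 0.323% were hypoDMCs and 0.228% hyperDMCs. The 2 sets differ in level, with 6.51% of the members' cytosines and 33.4% of all under 20%. A set of like level was not compared. The groups did not overlap at 14 of the 614 (2.28%) and at 2.10% of all cytosines, and 14.8% of the members' cytosines and 17.8% of all had an unadjusted p under 0.05. The 9 fell on 5 genes, with 3 in Tdrd1, 2 in Tdrd9, 2 in Rnf17 and 1 each in Mael and Asz1. Piwil1, Piwil2, Piwil4, Mov10l1 and Ddx4 had none. The regression treats reads of a pool as independent. The variance between pools was a median of 1.72 times that from counting alone at these cytosines (1.49 over all), and with this variance in the test, or with limma, 0 of the 9 and 0 of all cytosines were called. Without control 2 no member DMC was called, without arsenic 3 there was 1, without control 1 there were 3, and without control 4 there were 5.

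**Figure D4:**
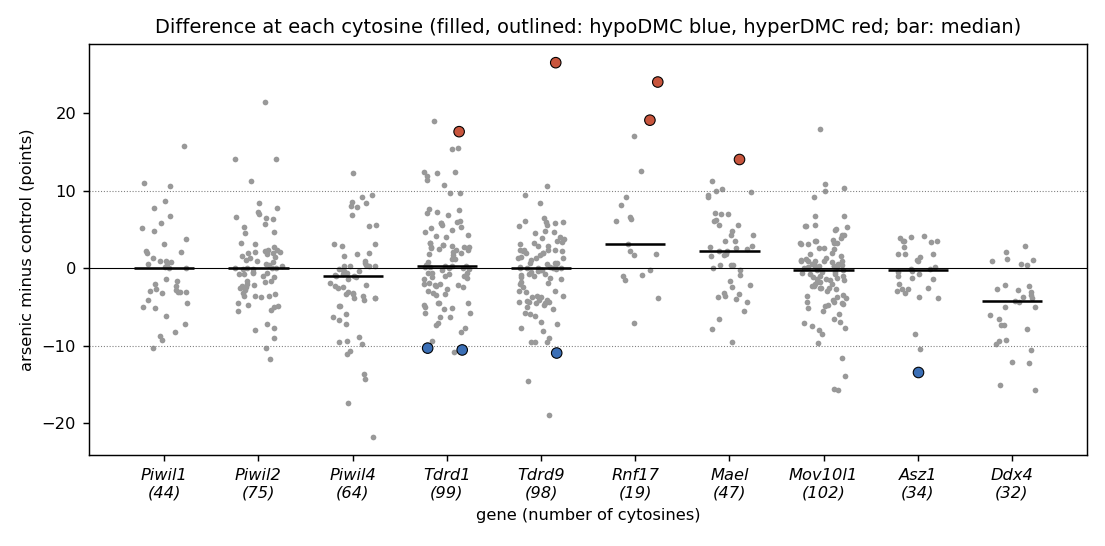
Difference in methylation (arsenic minus control, percentage points, weighted by coverage) at each of the 614 cytosines, by gene. Outlined points are the 4 hypoDMCs (blue) and 5 hyperDMCs (red), bars are medians and dotted lines mark 10 points, with the lowest median, -4.24, in Ddx4.

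In the Rnf17 promoter 2 cytosines, at -49 and -28 b from the start (chr14:56402648 and chr14:56402669, both on the plus strand), were hyperDMCs. At -28 b the control samples read 58.6%, 46.2%, 38.1% and 60.0%, and the arsenic samples 75.0%, 61.1%, 87.5% and 65.5%. All arsenic samples were above all controls (24.0 points, q = 0.00902, 16 to 48 reads per sample). With 1 sample left out the difference ran from 15.8 points (q = 0.202, without arsenic 3) to 28.9 points. At -49 b the controls read 100%, 53.8%, 81.0% and 44.8% and the arsenic samples 100%, 83.3%, 95.8% and 86.7%. Here control 1 was as high as any arsenic sample (19.1 points, q = 0.00853). The difference was 11.2 points without control 4 (q = 0.166) and 27.9 points without control 1. All 6 cytosines within 50 b of the cytosine at -28 b were higher in arsenic, by 1.72 to 19.1 points. The highest of these was the DMC at -49 b. Cytosines so close can share fragments of the same pools and are not separate observations.

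In Tdrd1 the promoter cytosine at -157 b (chr19:56826052) was a hyperDMC. The controls read 75.0%, 66.7%, 94.7% and 71.4% and the arsenic samples 96.3%, 100%, 92.3% and 92.3%. Control 3 lay among the arsenic samples (17.6 points, q = 0.00802), and the 2 cytosines within 50 b differed by -1.97 and 2.13 points. The other 2 DMCs of Tdrd1 were hypoDMCs, 4 bases apart in an intron (chr19:56854163 and chr19:56854167) in a stretch of 8 cytosines that averaged 26.7%. At the former the controls read 19.9%, 24.3%, 11.5% and 20.8% and the arsenic samples 9.30%, 14.5%, 2.25% and 5.19% at 77 to 176 reads, the deepest of the 9 (-10.5 points, q = 0.000744). At the latter the controls read 24.7%, 27.5%, 17.3% and 28.4% and the arsenic samples 9.30%, 22.6%, 11.8% and 9.27% (-10.3 points, q = 0.00710). At both the lowest control lay within the arsenic range. The cytosines on the opposite strand of these CpGs differed by 0.42 and -0.10 points (q = 1 for both), and with both strands summed the differences were -8.51 points (q = 0.00329) and -8.65 points (q = 0.0109), so neither was a DMC.

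The 2 DMCs of Tdrd9 lay in 1 intron and went opposite ways. At chr12:112052149 all 4 controls read 100% and the arsenic samples 93.8%, 90.0%, 78.6% and 94.7% (-10.9 points, q = 0.00948, 19 to 40 reads), without overlap. At chr12:112052286 the controls read 33.3%, 55.6%, 70.4% and 50% and the arsenic samples 63.6%, 87.9%, 91.7% and 70%. Control 3 reached above 2 arsenic samples (26.5 points, q = 0.00919). With 1 sample left out the difference ran from 17.5 points (q = 0.166, without control 1) to 34.4 points. The opposite strand of this CpG differed by -1.33 points (q = 0.920), and with both strands summed the difference was 3.85 points (q = 0.475) and the CpG was no DMC.

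The intronic DMC of Mael (chr1:166238499, 245 b downstream of the start) read 72.2%, 80%, 88.9% and 82.6% in control and 88.9%, 97.1%, 95.0% and 92.6% in arsenic. The highest control equalled the lowest arsenic sample (14.1 points, q = 0.00896). Without control 1 the difference was 9.29 points (q = 0.149). All 15 cytosines within 50 b of this DMC, which can share its fragments, were higher in arsenic as well, by 2.20 to 10.2 points. The lowest of these was the opposite strand of the same CpG (q = 0.954), and with both strands summed the difference was 8.61 points (q = 0.140) and the CpG was no DMC. The DMC of Asz1 (chr6:18063463, in an intron) read 100% in all controls and in arsenic 2 and arsenic 3, and 80% and 75% in arsenic 1 and arsenic 4. Its difference of -13.3 points (q = 0.00554) came from these 2 samples, at 15 to 33 reads per sample. With 1 sample left out it ran from -16.9 to -7.84 points.

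**Figure D5:**
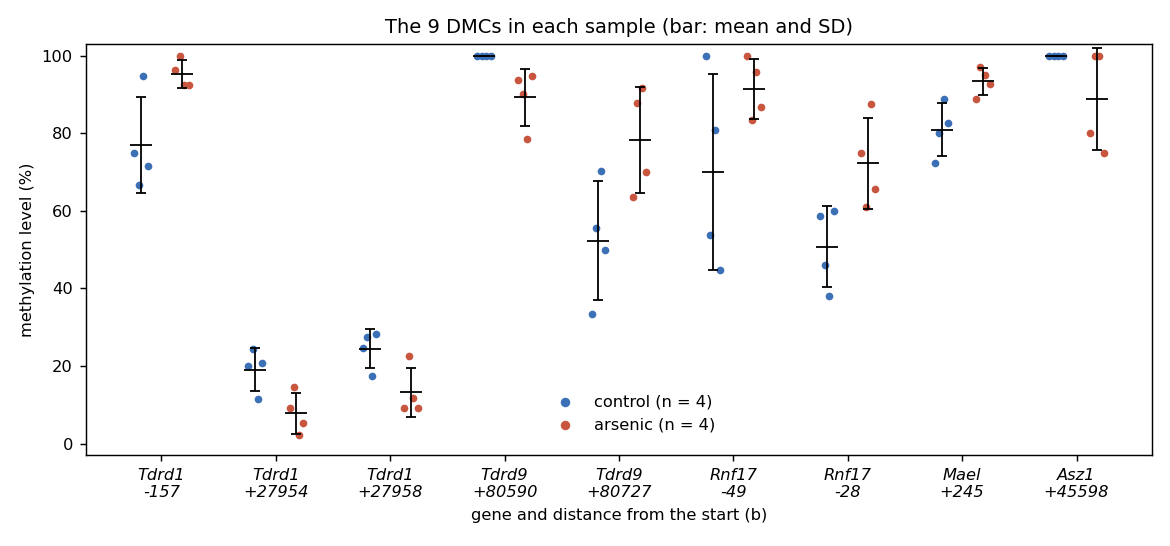
Methylation level in percent of the 9 DMCs in the 4 control (blue) and 4 arsenic (red) samples, by gene and distance from the start in bases, with the mean and SD. The groups stand fully apart only at Tdrd9 +80590 and Rnf17 -28.

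Over fixed 1 kb windows, 51 windows with at least 3 cytosines touched these genes. None was called at q of at most 0.01 and 10 points by the F test (0 of 51, 0% of 198209), by which 3 of the 51 (5.88%) and 4.51% of all windows had an unadjusted p under 0.05, and limma also called none of the 51. The groups did not overlap in 2 of the 51 (3.92%), against 3.13% of all windows. One lay in Piwil2 (chr14:70421001-70422000, 8 cytosines), with controls at 77.2%, 80.3%, 73.7% and 75.4% and arsenic samples at 67.8%, 73.3%, 73.4% and 71.5%. The other lay in Piwil4 (chr9:14728001-14729000, 6 cytosines), with controls from 89.0% to 91.6% and arsenic samples from 83.3% to 88.7%. The differences in mean level were -5.13 and -4.33 points. On the summed counts that the F test used they were -2.54 and -3.26 points, and both q values were 0.977.

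Of 18 other genes of the pathway, 17 were in the annotation used, and 11 promoters and 14 bodies had at least 3 cytosines. Their promoters were of 2 kinds. Those of Tdrd5, Tdrd7 and Exd1 stood at 1.17%, 0.684% and 0.783% and that of Tdrd6 at 14.5%, whereas the other 7 lay between 66.6% and 91.0%. By the F test 0 promoters and 0 bodies passed, with 1 promoter and 0 bodies at an unadjusted p under 0.05. The groups did not overlap at 1 of the 11 promoters (Tdrd12, a tudor protein needed for secondary piRNAs) and 1 of the 14 bodies (Tdrd6, a tudor protein of the spermatid granules), against 3.01% and 3.88% over all genes. The Tdrd6 body differed by -1.79 points in mean level and by 1.01 points on the summed counts (F test adjusted p = 0.974), so its direction turned with the weighting. Tdrd12 (9 cytosines) read 81.6%, 59.2%, 79.3% and 83.0% in control and 93.7%, 84.7%, 88.0% and 90.5% in arsenic, with control 2 far below the rest (13.5 points, exact permutation p = 0.0286, F test adjusted p = 0.848). Among the 599 cytosines of these genes there were 1 hypoDMC and 2 hyperDMCs (0.501% together).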

How the data were processed

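RRBS was done on 4 control and 4 arsenic samples. The deposited table gives, as counts per cytosine and sample, coverage, methylated and unmethylated reads, not normalized. Per the submitters' processing notes and the methods, the authors trimmed reads with Trim Galore 0.6.5, mapped them to mm10 with Bismark 0.22.3 and joined the 8 samples with methylKit 1.22.0, keeping strands apart. All 2130064 cytosines on chromosomes 1 to 19, X and Y were used (1541 elsewhere were left out), none of them covered by fewer than 10 reads in any sample. At such depths a single cytosine is imprecise, and PCR copies cannot be told from separate molecules, so counting limits cover counting error only.

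Starts were those of RefSeq Select transcripts. A level is the unweighted mean over cytosines. Single cytosines were tested with a likelihood-ratio test of logistic regression (q of at most 0.01, 10 points), and summed counts of promoters, gene bodies and 1 kb windows with at least 3 cytosines with a quasi-binomial F test. All p-values were adjusted by Benjamini-Hochberg over all features. Levels of single genes were compared by permuting the 8 samples exactly (two-sided, 70 assignments), unadjusted. Alternatives are given in the closing section. Every gene of the list was named in promoter and body, with every DMC and the cytosine nearest to its start. The genes and lists were chosen with earlier results of these data known. Scripts used scipy 1.17.1 and numpy 2.4.6 under Python 3.11.15, with pandas 2.3.3 for tables, matplotlib 3.10.9 for figures and limma 3.58.1 under R 4.3.3, and the tests were checked on simulated data.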

Additional observations from a re-analysis of the deposited data

Results flagged for a closer look

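In the 68 groups of 4 values that were examined, 1 held a sample far from the other 3, and chance flags about 1 in 20. The mean promoter level of the 6 piRNA pathway genes was 75.8% in arsenic 4, whereas the other arsenic samples stood at 77.7% to 78.0%. The control samples ranged from 72.7% to 77.2%.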

How the results depend on the processing

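The counts of called promoters, gene bodies and windows among these genes were 0 under every alternative run. An unadjusted p under 0.05 was reached by 1 member promoter, instead of 0, without control 2, without control 3 and with the replicate number as a block. With a coverage of 20 required, the count of DMCs was 4 instead of 9 (377 cytosines), and at 30 it was 3 (204 cytosines). It was 6 with both strands of a CpG summed (3 hypoDMCs and 3 hyperDMCs), where all cytosines together had 6700 DMCs instead of 11752. The counts at 30 and with strands summed each took in a cytosine that was not among the 9. With the variance between pools in the test or with limma the count was 0. Leaving out 1 sample at a time gave 0 to 9, with 0 without control 2. The number of gene bodies with an exact permutation p under 0.05 (1, Piwil4) was 0 at either coverage minimum and with coverage-weighted levels, and 0 to 1 with 1 sample left out. Of the differences in level, none of which had passed the test, that of the Rnf17 promoter turned to -0.66 points at a coverage of 20. At 30 those of the Piwil2 and Tdrd1 promoters were -0.15 and -1.28 points, and those of the Piwil2, Tdrd1 and Mael bodies 0.16, -1.22 and -4.38 points. With both strands of a CpG summed, the bodies of Piwil1 and Tdrd1 differed by 0.19 and -0.22 points. With 1 sample left out, the sign also turned for the Mael promoter (-2.57 to 2.05 points) and for the bodies of Piwil1 (-0.94 to 0.86), Tdrd1 (-0.20 to 0.62), Tdrd9 (-1.03 to 0.054), Mael (-0.43 to 3.54) and Rnf17 (-3.95 to 0.99). Higher coverage minimums leave fewer cytosines, and otherwise the cause was not tested.

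With the replicate number as a block, there were 7 DMCs, and 0 gene bodies passed, since a paired exact test of 4 pairs cannot go below p = 0.125. Deviations from the group means correlated at -0.00128 to 0.00270 in the 4 pairs of the same number. They correlated at -0.00221 to 0.00166 in the other 12, so no pairing by number was seen. A pairing that touched few cytosines would not show in such a correlation.

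Depth also limits single cytosines: at the coverage of 10 that the table allows, 1 read is worth 10 points. With 1 sample left out, the promoter differences that kept their sign ran from 0.33 to 4.19 points in Asz1, 1.78 to 5.85 in Piwil2, 1.89 to 6.20 in Tdrd1, 6.27 to 10.6 in Rnf17 and -6.92 to -3.57 in Ddx4.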
